A study of Homo sapiens with 12 samples.

Results

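Antisense non-coding genes carry the symbol of a neighbouring gene followed by AS and a number. The genes described here were the rows of the deposited table whose symbol has that form, without OIP5-AS1 and EPB41L4A-AS1, and which were selected on their level, by estimated counts that summed to at least 100 over all 12 libraries. There were 106 such genes of 57134 in the table and of 1217 with an AS symbol, and they are called AS genes below. Another 1109 AS rows lay under the sum, of which 727 had any count. Just inside the threshold were CPNE8-AS1 with a sum of 100 estimated counts, ELF3-AS1 with 101.5 and TTN-AS1 with 102.1. Just outside were ZNF433-AS1 with 98.8, ETV5-AS1 with 96 and PITPNM2-AS1 with 96.

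The libraries hold total RNA of HCT116, a human colon carcinoma cell line, made with MATQ-seq, an amplification protocol that also captures RNA without a poly(A) tail. The DASHed libraries went through scDASH, in which Cas9 cuts library molecules that derive from ribosomal RNA (rRNA), and the Untreated libraries did not. There were 2 DASHed and 2 Untreated mini-bulk libraries, made from the same cell line, and 4 DASHed and 4 Untreated libraries of single cells sorted by FACS. Separate cultures are not named in the labels. The mini-bulk p-values therefore measure only how far these libraries scatter, which may be technical, and a group of single cells counts as 1 sample and has no test. Library totals were 837614 to 1087711 estimated counts in DASHed and 5803180 to 6026584 in Untreated mini-bulk, and 1018874 to 1573651 in DASHed and 5545355 to 6008358 in Untreated cells. The 7 colon epithelial markers examined all had counts and summed to 151 to 4236 CPM, the counts of a gene per fixed number of counts in its library, in each library. Of the markers of other cell types, those of fibroblasts summed to at most 34.1 CPM, with COL3A1 at 0, and those of leukocytes to at most 1.23 CPM, with CD3E, LYZ and CD14 at 0. Endothelial markers reached 6.16 CPM, with VWF at 0, and the erythroid markers HBA1 and HBB were at 0.

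An antisense gene is transcribed from the DNA strand opposite to its partner, either across the partner's body or away from it out of a shared promoter region. Antisense RNAs are often low in level and retained in the nucleus, and some are known to silence or support their partner by acting on its promoter, its splicing or the stability of its mRNA. Symbols ending in AS are assigned by position and say nothing of function.

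Start regions of 6 AS genes that the results turn on are shown, each running from 250 bases before the RefSeq start to 50 bases after it, on the strand of the AS gene in GRCh38.p14. Capitals mark the first 50 transcribed bases. The first 4 belong to genes that fell after depletion, and the last pair to genes that rose. They lie at chr4:39527589-39527888 on the plus strand for UGDH-AS1, chr10:79826545-79826844 on the minus strand for NUTM2B-AS1, chr2:38130855-38131154 on the plus strand for CYP1B1-AS1 and chr3:45688833-45689132 on the minus strand for LIMD1-AS1. The last pair lies at chr16:89711606-89711905 on the plus strand for VPS9D1-AS1 and chr7:1742261-1742560 on the minus strand for ELFN1-AS1.
UGDH-AS1: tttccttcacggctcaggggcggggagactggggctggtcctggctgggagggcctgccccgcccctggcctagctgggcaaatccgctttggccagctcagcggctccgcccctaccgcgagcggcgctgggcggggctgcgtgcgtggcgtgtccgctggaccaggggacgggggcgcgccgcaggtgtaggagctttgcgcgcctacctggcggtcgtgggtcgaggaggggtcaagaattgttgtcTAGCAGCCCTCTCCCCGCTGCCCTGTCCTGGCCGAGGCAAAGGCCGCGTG
NUTM2B-AS1: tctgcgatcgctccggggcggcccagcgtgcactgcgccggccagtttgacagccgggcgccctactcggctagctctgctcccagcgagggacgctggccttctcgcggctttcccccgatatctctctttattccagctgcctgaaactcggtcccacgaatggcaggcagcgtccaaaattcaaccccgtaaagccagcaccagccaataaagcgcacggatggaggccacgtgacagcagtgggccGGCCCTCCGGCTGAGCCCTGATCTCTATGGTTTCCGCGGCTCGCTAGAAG
CYP1B1-AS1: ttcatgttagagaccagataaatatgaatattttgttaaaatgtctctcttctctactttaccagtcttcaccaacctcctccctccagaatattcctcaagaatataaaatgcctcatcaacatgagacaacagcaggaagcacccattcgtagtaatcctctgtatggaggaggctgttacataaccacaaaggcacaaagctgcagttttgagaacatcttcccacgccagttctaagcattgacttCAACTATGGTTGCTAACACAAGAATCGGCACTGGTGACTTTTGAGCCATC
LIMD1-AS1: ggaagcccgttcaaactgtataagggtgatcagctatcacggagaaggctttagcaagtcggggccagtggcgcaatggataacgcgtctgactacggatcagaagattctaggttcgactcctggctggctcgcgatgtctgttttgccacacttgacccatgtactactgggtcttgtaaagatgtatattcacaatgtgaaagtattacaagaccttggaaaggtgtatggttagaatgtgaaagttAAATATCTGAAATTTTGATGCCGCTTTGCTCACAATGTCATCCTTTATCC
VPS9D1-AS1: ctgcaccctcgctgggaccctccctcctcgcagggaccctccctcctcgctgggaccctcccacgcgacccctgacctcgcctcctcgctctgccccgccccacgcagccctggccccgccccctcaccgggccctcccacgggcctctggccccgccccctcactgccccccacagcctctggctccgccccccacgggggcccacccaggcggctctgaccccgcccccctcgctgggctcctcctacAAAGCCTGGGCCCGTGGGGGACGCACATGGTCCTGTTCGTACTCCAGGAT
ELFN1-AS1: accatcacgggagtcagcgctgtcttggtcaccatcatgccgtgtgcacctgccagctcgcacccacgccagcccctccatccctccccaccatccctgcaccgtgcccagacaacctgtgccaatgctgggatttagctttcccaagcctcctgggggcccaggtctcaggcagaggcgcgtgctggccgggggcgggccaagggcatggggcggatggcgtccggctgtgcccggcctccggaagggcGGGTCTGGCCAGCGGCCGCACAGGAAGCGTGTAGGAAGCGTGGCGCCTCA

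RefSeq held start regions of 80 of the 106 AS genes, and 63 had exactly 1. These 63 had a median GC content of 63.3% and 19 CpG dinucleotides, against 58.7% and 14 in all 35116 RefSeq start regions of the same length. The motif TATAAA, searched on both strands, occurred in 7.94% of the 63 and in 11.5% of all. Among those printed, CYP1B1-AS1 holds it, with 41.3% GC and 3 CpG dinucleotides. UGDH-AS1 lacks these letters and has 71.7% GC and 28 CpG dinucleotides, and LIMD1-AS1 also lacks them, with 44.7% GC and 11. The start regions of the 14 AS genes that fell and have 1 region had a median of 60.8% GC. Those of VPS9D1-AS1 and ELFN1-AS1, which rose, had 75.7% and 69.0% GC.

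The annotation placed most AS genes in overlap with their partner. The overlap can be short, at 0.25% of the exonic bases of TPT1-AS1. In GENCODE v29 (GRCh38), 73 AS genes shared exonic positions with the gene named before the hyphen, 18 overlapped its body without a shared exon, and 11 pointed away from it without overlap. The other 4 had no partner in that annotation. A start of the AS gene lay within 1000 bases of a start of its partner for 48 of 102, among them 35 of the 73. The annotated types were antisense for 77, processed transcript for 14 and lincRNA for 11, and NCBP2-AS2 is annotated as protein coding. Transcripts of AS genes had a median length of 919 bases over genes (range 390 to 6391), and those of the partners 1199 bases. The handling of strand is not given in the sources used here, so reads of an AS gene and of a partner that overlaps it cannot be told apart. At least 1 run of 31 bases, read on either strand, was common to AS gene and partner in 70 of 102 pairs, and 14 shared at least 25% of such runs. SMARCA5-AS1 shared 65.7%, LIMD1-AS1 61.9%, ATP2C2-AS1 61.1%, ZNF337-AS1 51.1% and AGAP2-AS1 47.1%, and values of these genes are uncertain. UGDH-AS1 shared 9.54% with its partner but 57.7% with some gene of the annotation, and NUTM2B-AS1 shared 0% and 28.4%. The values of UGDH-AS1 and NUTM2B-AS1 are therefore uncertain too. In all, 52 of 106 AS genes shared at least 10% of their exonic bases with some other gene.

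The AS genes took a larger part of the DASHed libraries as a whole, but a smaller part of what is not rRNA. Summed over the 106 genes, their level was 1152 and 1147 CPM in the DASHed mini-bulk libraries, against 411 and 523 CPM in the Untreated ones. The ratio of means was 2.46. With rRNA left out of the library total, the same sums in CPM were 2011 and 1850 in DASHed mini-bulk, against 2895 and 2933 in Untreated mini-bulk, a ratio of 0.663. In single cells the sums were 1216 to 2175 CPM in DASHed and 463 to 821 CPM in Untreated cells, a ratio of 2.48, and outside rRNA 1905 to 3377 in DASHed and 2194 to 3780 in Untreated cells, a ratio of 0.8291. The mini-bulk groups did not overlap on either scale, and the single cells overlapped outside rRNA. The share of rRNA, with the genes that lie inside 18S, was 38.0 to 42.7% in DASHed and 82.2 to 85.8% in Untreated mini-bulk, and 29.9 to 38.4% in DASHed and 72.9 to 81.3% in Untreated cells. As the selection rule summed raw counts, it leaned on the deep Untreated libraries: a median of 62.1% of a gene's sum came from the 6 Untreated libraries, which hold 82.5% of all counts. As scDASH acts on library molecules, a difference between DASHed and Untreated libraries cannot be read as a change of RNA in the cells. Within a mini-bulk sample, the amount of an RNA per cell and the number of cells that make it cannot be told apart.

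**Figure D1:**
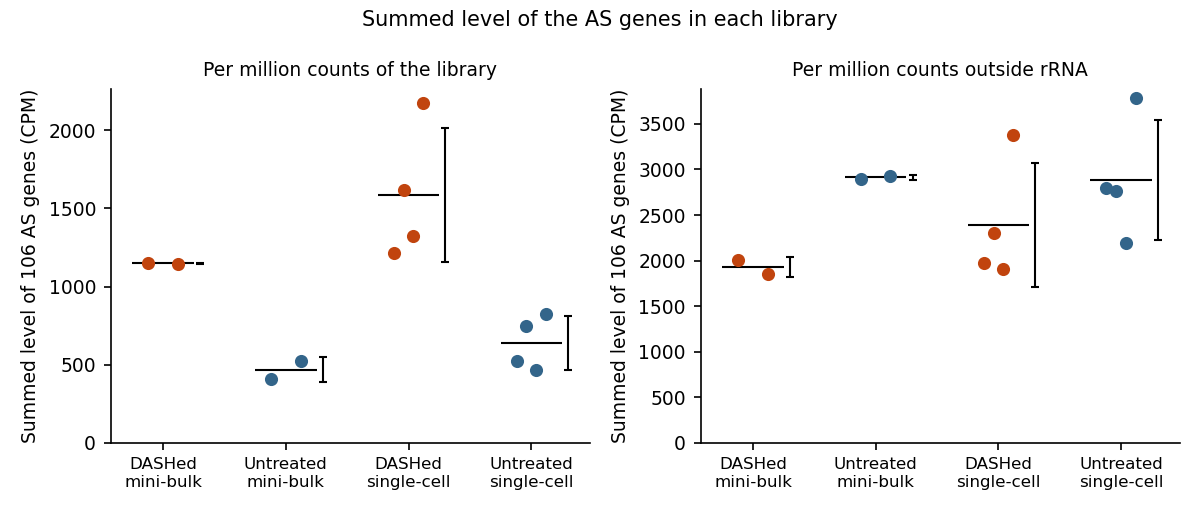
Summed level of the 106 AS genes in each library (points), with the mean of each group (line) and its SD (bar beside it), as CPM of the whole library (left) and of counts outside rRNA (right). DASHed libraries lie above Untreated ones on the left, and on the right the 2 DASHed mini-bulk libraries, 2011 and 1850, lie below the Untreated ones, 2895 and 2933.

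In mini-bulk, more AS genes fell than rose after depletion. Counts were compared gene by gene with edgeR's quasi-likelihood test, with library sizes scaled by TMM, a method that sets the bulk of genes to no change, and p-values adjusted by Benjamini-Hochberg over all tested genes. Of all 10083 genes tested, 29.7% passed an adjusted p of 0.05, 9.9% rising and 19.8% falling. Of the 106 AS genes 66 had enough counts to be tested, and 3 rose, 18 fell and 45 did not pass. The median log2 fold change of the tested AS genes was −0.56, beside 0.03 for all tested genes. An AS gene could pass the count filter through its Untreated libraries alone, and the selection sum leans the same way, so these numbers describe the list and give no evidence on antisense genes as a class. Scaling by total counts alone moves the median log2 fold change of all genes to 2.04. Under it 31 AS genes rose (47.0%) and 2 fell (3.03%), beside 66.6% and 1.37% of all tested genes. With a trend on GC content removed, 0 AS genes rose and 5 fell (7.58%), beside 1.68% and 1.98% of all tested genes.

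UGDH-AS1 and CYP1B1-AS1 were among the AS genes that fell furthest with many counts behind them. UGDH-AS1 lies at chr4:39528019-39594707 on the plus strand, opposite the gene of UDP-glucose dehydrogenase, which makes the UDP-glucuronate used for glycosaminoglycans and conjugation. It had 1.91 and 2.33 TMM-scaled CPM in DASHed mini-bulk, against 43.8 and 39.3 in Untreated mini-bulk. Its log2 fold change was −4.27 ± 0.40 (SE, edgeR adjusted p = 0.000194). CYP1B1-AS1, at chr2:38073447-38231651 on the plus strand, is the AS gene with the highest sum and neighbours a cytochrome P450 that oxidises oestrogens and foreign compounds. It had 19.6 and 24.4 TMM-scaled CPM in DASHed mini-bulk, against 135 and 170 in Untreated mini-bulk, a log2 fold change of −2.80 ± 0.22 (adjusted p = 8.8e-05). NUTM2B-AS1, at chr10:79663088-79826594 on the minus strand, neighbours a gene of the NUT family and had 5.25 and 6.39 in DASHed, against 39.3 and 44.0 in Untreated mini-bulk on the same scale. Its log2 fold change was −2.84 ± 0.34 (adjusted p = 0.000683). In each of these 3 genes both DASHed libraries lay far below both Untreated ones, and the calls held with any 1 library left out and with the GC trend removed. Under total counts UGDH-AS1 was still called, at a log2 fold change of −2.27, while CYP1B1-AS1 at −0.79 and NUTM2B-AS1 at −0.83 were not (adjusted p = 0.0505 and 0.122).

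LIMD1-AS1, at chr3:45679043-45689134 on the minus strand, is named for a LIM-domain scaffold protein. It had 0 and 0.323 estimated counts in the DASHed mini-bulk libraries, against 24.97 and 36.15 in the Untreated ones. Against a floor of 3 counts over the DASHed pair of libraries, it was at least 13.4-fold lower there on the TMM scale (edgeR adjusted p = 0.00347). LIMD1-AS1 was still seen in cells: 9.51, 0, 0 and 7.16 CPM in DASHed cells 1 to 4, against 22.4, 0, 3.52 and 7.65 CPM in Untreated cells 1 to 4. PSMA3-AS1, named for an alpha subunit of the 20S proteasome, had 2 counts in DASHed mini-bulk after rounding, against 54 in Untreated mini-bulk. That is a ratio of 0.0561 on the TMM scale, with a counting interval of 0.00663 to 0.213 (95%, exact), and the edgeR adjusted p was 0.0101. Leaving out either Untreated library took LIMD1-AS1 and PSMA3-AS1 under the count filter.

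Several further AS genes fell. PCBP1-AS1, opposite an RNA-binding protein that recognises C-rich stretches, had 8.11 and 6.98 TMM-scaled CPM in DASHed mini-bulk, against 27.2 and 27.3 in Untreated mini-bulk (log2 fold change −1.84 ± 0.36, edgeR adjusted p = 0.00613). GABPB1-AS1, named for the beta subunit of the ETS factor GABP, had 22.9 and 15.7 in DASHed, against 50.3 and 45.2 in Untreated mini-bulk (log2 fold change −1.29 ± 0.28). PCBP1-AS1 and GABPB1-AS1 are higher in DASHed mini-bulk when scaled by total counts, at log2 fold changes of 0.17 and 0.72, and GABPB1-AS1 is at 0.20 with the GC trend removed. ZBED3-AS1, named for a BED zinc finger protein that binds Axin, had 2.86 and 1.16 in DASHed, against 16.3 and 19.5 in Untreated mini-bulk. CCDC18-AS1, named for a coiled-coil protein, had 1.91 and 0.581 against 12.5 and 10.7. POT1-AS1, named for the protein that binds single-stranded telomeric DNA, had 1.43 and 0.581 against 7.18 and 7.86. SBF2-AS1, named for a pseudophosphatase of the myotubularin family, had 2.39 and 0 against 9.45 and 9.74. SEPSECS-AS1, named for the enzyme that makes selenocysteinyl-tRNA, had 0 and 3.49 against 10.96 and 10.68 and lay nearest the threshold (adjusted p = 0.0491). SMC2-AS1, next to a condensin subunit, had 1.91 and 0.581 against 7.18 and 8.48. The groups did not overlap in any of these genes, but the last 6 rest on few counts in the DASHed libraries. Without DASHed replicate 2 the adjusted p was 0.0768 for POT1-AS1, 0.0788 for SBF2-AS1 and 0.103 for SMC2-AS1, and without DASHed replicate 1 it was 0.105 for SEPSECS-AS1. Of these 6 ZBED3-AS1 was still tested without Untreated replicate 1 and was called, but not without replicate 2, and the others came under the count filter without either Untreated library.

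The 3 AS genes that rose were VPS9D1-AS1, ELFN1-AS1 and SMARCA5-AS1. VPS9D1-AS1, at chr16:89711856-89718165 on the plus strand, is named for a protein with a domain that activates Rab5-type GTPases. It had 51.5 and 38.4 TMM-scaled CPM in DASHed mini-bulk, against 26.8 and 20.4 in Untreated mini-bulk (log2 fold change 0.94 ± 0.28, edgeR adjusted p = 0.0326). ELFN1-AS1, at chr7:1738630-1742291 on the minus strand, lies in the body of the gene of a synaptic leucine-rich repeat protein without sharing an exon. It had 19.6 and 14.5 in DASHed, against 7.56 and 4.08 in Untreated mini-bulk (log2 fold change 1.56 ± 0.47, adjusted p = 0.0344). SMARCA5-AS1, at chr4:143513472-143514635 on the minus strand, overlaps the first part of the gene of the ISWI remodelling ATPase SNF2H. It had 11.4 and 7.29 estimated counts in DASHed mini-bulk, against 1.57 and 1.53 in Untreated mini-bulk, and on the TMM scale a ratio of 6.82 with a counting interval of 2.25 to 27.7 (adjusted p = 0.0222). Each of the 3 calls was lost without DASHed replicate 1 or without Untreated replicate 2: the adjusted p was 0.0635 and 0.362 for ELFN1-AS1 and 0.0740 and 0.448 for VPS9D1-AS1. SMARCA5-AS1 was no longer tested without DASHed replicate 1 and had an adjusted p of 0.543 without Untreated replicate 2, 0.0600 without DASHed replicate 2 and 0.515 without Untreated replicate 1. VPS9D1-AS1 also missed the threshold without Untreated replicate 1 (adjusted p = 0.0973). DESeq2 called VPS9D1-AS1 (adjusted p = 0.0492) but not ELFN1-AS1 (0.0714), and gave SMARCA5-AS1 no adjusted p. Without the filter on low counts edgeR did not call SMARCA5-AS1 (0.0661). With the GC trend removed none of the 3 was called, at adjusted p-values of 0.872 for VPS9D1-AS1, 0.469 for ELFN1-AS1 and 0.230 for SMARCA5-AS1.

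**Figure D2:**
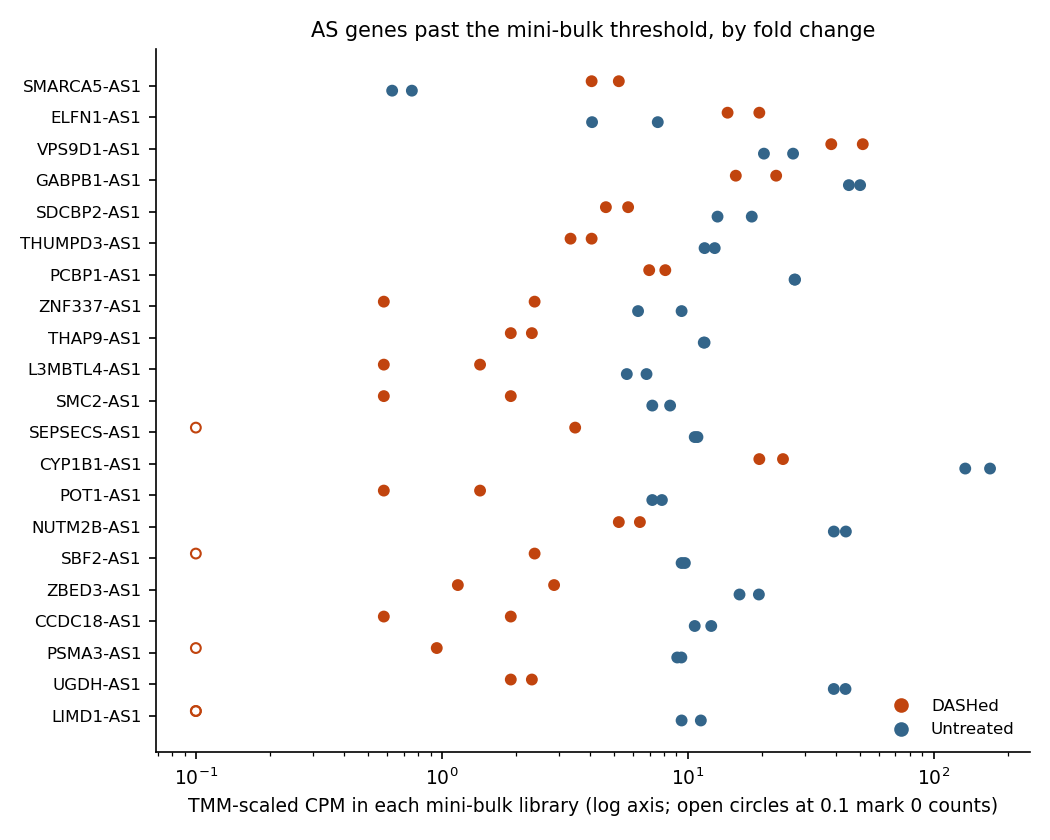
TMM-scaled CPM (log axis) of the 21 AS genes past the mini-bulk threshold in the 2 DASHed and 2 Untreated libraries, ordered by fold change from highest to lowest, with open circles where no count was seen. The groups do not overlap in any row, and CYP1B1-AS1 has the highest values, 19.6 and 24.4 in DASHed against 135 and 170 in Untreated libraries.

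Several of the AS genes with the highest sums did not pass the threshold. LRRC75A-AS1, a spliced host transcript of small nucleolar RNAs, had 29.1 and 34.9 TMM-scaled CPM in DASHed mini-bulk, against 40.4 and 38.0 in Untreated mini-bulk (log2 fold change −0.30 ± 0.24, edgeR adjusted p = 0.373). TMEM147-AS1, named for an endoplasmic reticulum membrane protein, had 42.9 and 28.5 in DASHed, against 24.9 and 18.2 in Untreated mini-bulk, and did not pass (adjusted p = 0.105), but did without DASHed replicate 2 (adjusted p = 0.0268). GAS6-AS1, named for the ligand of the TAM receptor kinases, had 35.3 and 18.6 in DASHed, against 18.1 and 7.54 in Untreated mini-bulk (adjusted p = 0.111). It passed without DASHed replicate 2 (0.0199), without Untreated replicate 1 (0.0188) and with no filter on low counts (0.0257). PAX8-AS1, named for a paired-box factor of thyroid and kidney, had 17.7 and 12.2 against 26.8 and 18.5 (adjusted p = 0.244). In LRRC75A-AS1 and PAX8-AS1 the DASHed libraries were the lower ones, and in TMEM147-AS1 and GAS6-AS1 the higher ones. For LRRC75A-AS1 and PAX8-AS1 the direction turned under total counts.

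The AS genes that fell had GC-poor transcripts and those that rose GC-rich ones, as was true of all genes. The median GC content of the transcripts was 63.3% for the 3 AS genes that rose, 51.3% for the 45 that did not pass and 43.8% for the 18 that fell. Over all tested genes it was 59.4% for those that rose, 52.7% for those that did not pass and 42.7% for those that fell. The log2 fold change and GC content of the 66 tested AS genes had Pearson's r of 0.69 and Spearman's rho of 0.77, and the 10053 tested genes with a GC value had 0.74 and 0.79. Genes are not independent replicates, and the points share the same 4 libraries. The low GC content of UGDH-AS1 (42.8%) and NUTM2B-AS1 (44.8%) stands beside that of CYP1B1-AS1 (46.9%), and VPS9D1-AS1 had 63.3%. With the GC trend removed, CYP1B1-AS1, LIMD1-AS1, NUTM2B-AS1 and UGDH-AS1 were the only ones of the 21 still called, with UGDH-AS1 at a log2 fold change of −2.84 and VPS9D1-AS1 at 0.16.

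**Figure D3:**
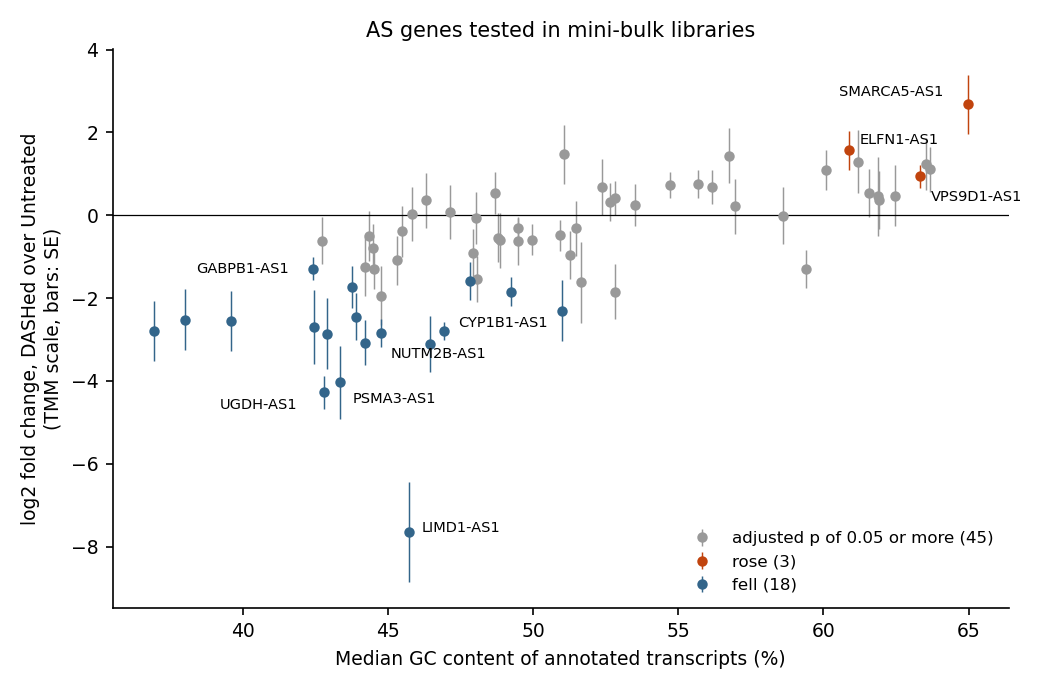
Log2 fold change (DASHed over Untreated mini-bulk, TMM scale, bars show SE) of the 66 tested AS genes against the median GC content of their annotated transcripts. The 3 genes that rose lie at 60.9% GC or above and the 18 that fell at 51.0% or below. The fitted value of LIMD1-AS1 rests on no DASHed count after rounding and is no measure of size.

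The partner of each AS gene was examined in the same way. A partner row existed for 103 AS genes, naming 102 genes, since DLGAP1 stands before the hyphen of both DLGAP1-AS1 and DLGAP1-AS2. Of these 102 partners 72 were tested, and 9 rose (12.5%) and 14 fell (19.4%), close to the 9.9% and 19.8% of all tested genes. Their median log2 fold change was 0.21. In 44 pairs both genes were tested: neither passed in 26, the AS gene alone in 8, the partner alone in 5, both fell in 4, and in 1 they were called in opposite directions. The 4 pairs in which both fell are those of PSMA3, ZBED3, SBF2 and SMC2. PSMA3 itself had 1.43 and 2.91 TMM-scaled CPM in DASHed, against 18.1 and 15.7 in Untreated mini-bulk (log2 fold change −2.97 ± 0.54, edgeR adjusted p = 0.0048). The pair called in opposite directions is PCBP1, which had 156 and 198 in DASHed, against 97.9 and 119 in Untreated mini-bulk (log2 fold change 0.70 ± 0.19, adjusted p = 0.0224), while PCBP1-AS1 fell. Across the 44 pairs the fold changes of AS gene and partner had Pearson's r of 0.41 and Spearman's rho of 0.46, with medians of −0.47 for the AS genes and 0.25 for the partners. The points share 4 libraries, and the part of reads common to both genes of a pair in this relation was not tested.

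Within a pair, the antisense share is the AS gene's part of the estimated counts of both genes. It does not depend on the scaling of libraries, but may depend on GC content where AS gene and partner differ in it. For UGDH it was 13.5 and 17.5% in DASHed mini-bulk, against 68.6 and 69.8% in Untreated mini-bulk. UGDH itself had 11.5 and 10.5 TMM-scaled CPM in DASHed, against 20.0 and 17.0 in Untreated mini-bulk, and did not pass (adjusted p = 0.150). Per base of median transcript length, UGDH-AS1 stood at 0.038 of the level of UGDH in DASHed and at 0.468 in Untreated mini-bulk. For NUTM2B the antisense share was 41.1 and 60.3% in DASHed, against 95.04 and 96.64% in Untreated mini-bulk. For PCBP1 it was 4.98 and 3.35% in DASHed, against 21.8 and 18.7% in Untreated mini-bulk. For LIMD1 it was 0 and 0.549% against 26.1 and 19.4%, and for SEPSECS 0 and 59.1% against 75.9 and 84.2%. For RALY, an RNA-binding protein of the hnRNP family, it was 0 and 6.74% in DASHed, against 18 and 19.3% in Untreated mini-bulk. In these 6 pairs the share was lower in both DASHed libraries than in both Untreated ones. An exact two-sided permutation test gives p = 0.3333 for each, the smallest that 2 against 2 libraries allow. Median transcript GC content of AS gene and partner was 42.8 and 46.8% for UGDH, 44.8 and 60.1% for NUTM2B and 49.3 and 55.2% for PCBP1. It was 45.7 and 54.6% for LIMD1, 42.4 and 41.1% for SEPSECS and 51.6 and 58.4% for RALY. The part of GC content in the shares was not tested.

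Apart from PCBP1, the pairs given here and above were picked for a large difference in fold change between AS gene and partner. How many went each way describes that choice. In some of these pairs the share was higher in both DASHed libraries than in both Untreated ones. For SMARCA5 it was 59.8 and 26.9% in DASHed, against 3.71 and 3.001% in Untreated mini-bulk. For STARD7, a carrier of phosphatidylcholine, it was 13.0 and 8.14% in DASHed, against 0.738 and 1.71% in Untreated mini-bulk. Median transcript GC content of AS gene and partner was 65.0 and 38.0% for SMARCA5 and 51.1 and 46.7% for STARD7. STARD7 itself had 26.7 and 31.4 TMM-scaled CPM in DASHed, against 102 and 90.2 in Untreated mini-bulk (log2 fold change −1.72 ± 0.21, edgeR adjusted p = 0.000804), and STARD7-AS1 rests on 2 and 5 estimated counts in the Untreated libraries. In the pairs of SMC2, TTN and TPT1 both log2 fold changes were negative, and that of the AS gene was the less negative. For AS gene and partner they were −2.55 and −4.40 for SMC2, −1.94 and −2.71 for TTN and −1.84 and −2.49 for TPT1. The shares of these pairs overlapped between groups. For TPT1, the translationally controlled tumour protein, the shares were 10.3 and 3.12% in DASHed, against 4.90 and 4.21% in Untreated mini-bulk. Of 99 pairs with a share in all 4 mini-bulk libraries, the share was lower in both DASHed libraries than in both Untreated ones in 24 (24.2%) and higher in 17 (17.2%). No such share exists for genes outside the pairs. For levels on the TMM scale, both DASHed libraries lay below both Untreated ones in 36.9% of all tested genes and above them in 31.2%, so separation of this kind was common and the counts of pairs are a description. Per base of median transcript length, the AS gene stood above its partner in 31 of 91 pairs in DASHed and in 39 of 99 in Untreated mini-bulk. Pairs whose partner had no count in a group, or no annotated length, have no such ratio and are left out. In DASHed mini-bulk these include pairs in which only the AS gene had counts. The numbers of DASHed and Untreated mini-bulk therefore cannot be compared. Of the summed counts of all 106 AS genes and the 102 partners, AS genes made up 22.5 and 20.2% in DASHed and 30.4 and 30.8% in Untreated mini-bulk. This sum includes the AS genes without a partner row.

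**Figure D4:**
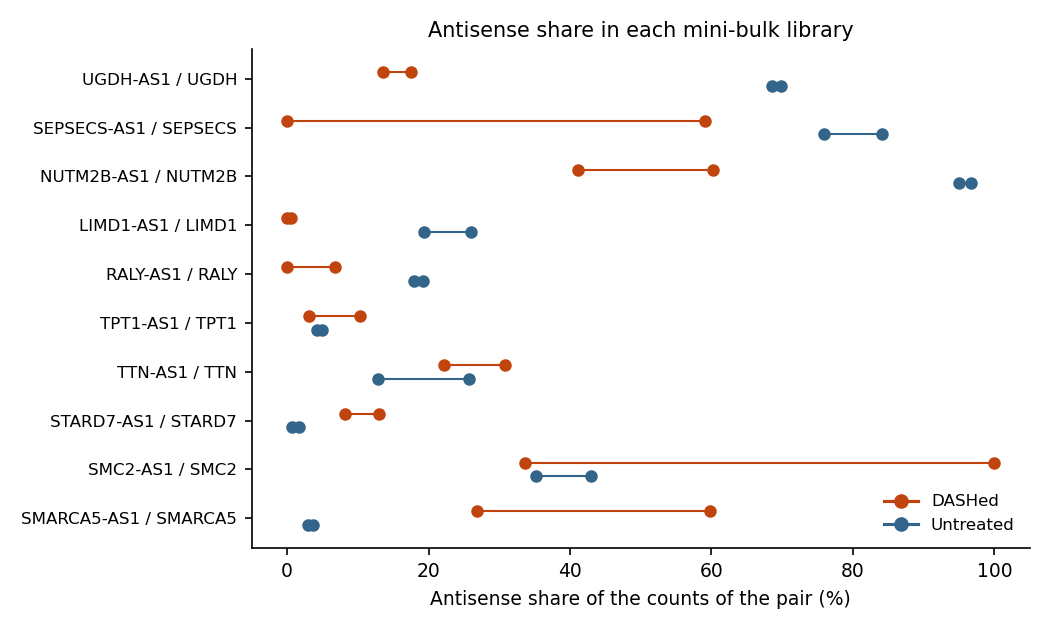
Antisense share of the counts of a pair (%) in each DASHed and Untreated mini-bulk library, with a line between the libraries of a group, for the 5 pairs each way with the largest difference in fold change, ordered by the difference in mean share. For UGDH the DASHed libraries lie at 13.5 and 17.5% and the Untreated ones at 68.6 and 69.8%, and for SMARCA5 the DASHed libraries lie above the Untreated ones.

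In single cells the antisense share is given as values, with no test. The antisense share of UGDH was 40.0, 16.4, 40.4 and 34.8% in DASHed cells 1 to 4, against 59.3, 53.6, 80.3 and 70.0% in Untreated cells 1 to 4. For PCBP1 it was 1.72, 1.52, 6.75 and 15.5% in DASHed, against 6.98, 4.74, 13.0 and 44.5% in Untreated cells. In both pairs each DASHed cell lay below its same-numbered Untreated cell, as did those of RALY, although for PCBP1 the groups overlapped. Other pairs with a lower mini-bulk share did not follow in every cell. DASHed minus Untreated, the share of SEPSECS was −50.5 percentage points in mini-bulk but 4.602 in cell 2 and 7.72 in cell 4, and that of ZNF337 was −45.7 in mini-bulk but 40.9 in cell 2 and 23.7 in cell 3. For SMARCA5 the share was 66.3, 20.0, 42.9 and 58.9% in DASHed, against 13.5, 5.83, 12.3 and 67.6% in Untreated cells, so DASHed was the higher in cells 1 to 3 and the lower in cell 4. For LRRC75A the cells and mini-bulk went opposite ways: 100, 100, 100 and 79.6% in DASHed, against 91.1, 92.1, 88.7 and 69.4% in Untreated cells, but 70.3 and 87.1% in DASHed and 88.3 and 92.2% in Untreated mini-bulk. LRRC75A had 0 counts in DASHed cells 1 to 3, against 18.2, 7 and 15.2 estimated counts in Untreated cells of these numbers.

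Levels of AS genes differed strongly from cell to cell, and the difference recurred between same-numbered DASHed and Untreated cells. The labels do not say whether same-numbered libraries came from the same cell, and the recurrence cannot be read as an independent repeat. The cell number with the highest CPM was the same in both groups for 84 of the 106 AS genes (79.2%), beside 79.3% of 9832 other genes with at least 100 summed counts. For 32 AS genes (30.2%), at least 80% of the CPM over the 4 cells of a group lay in 1 cell, of the same number in DASHed and Untreated cells, beside 13.9% of the other genes. The share was larger at low sums in both sets: among genes with sums of 100 to under 300 it was 36.3% of 80 AS genes and 26.8% of 3506 other genes. With sums of 300 to under 3000 it was 11.5% of 26 AS genes and 7.45% of 5654 other genes. The sum that selected both sets includes these cells, so a gene can have passed it through the cell where it is high. The 32 were spread over the cells, with 3 in cell 1, 10 in cell 2, 6 in cell 3 and 13 in cell 4.

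TBC1D22A-AS1, named for a protein with a Rab GTPase-activating domain, had 0, 0, 117 and 1.09 CPM in DASHed cells 1 to 4, against 0, 0.721, 25.2 and 1.20 CPM in Untreated cells 1 to 4. Cell 3 stood alone in both groups. ATP11A-AS1, named for a phospholipid flippase, had 89.3 CPM in DASHed cell 2 and 0 in the other three, against 20.0 CPM in Untreated cell 2, 0.166 in cell 3 and 0 in the others. SNAI3-AS1, named for a Snail-family repressor, had 71.6 CPM in DASHed cell 2, against 21.6 CPM in Untreated cell 2, and at most 0.639 CPM in any other cell. ZNF503-AS1, named for a zinc finger repressor, had 63.8 CPM in DASHed cell 2 and 15.7 CPM in Untreated cell 2, and was at 0 in all other cells. A1BG-AS1, named for a plasma glycoprotein, likewise had 58.2 CPM in DASHed cell 2 and 19.7 CPM in Untreated cell 2, with 0 elsewhere. In mini-bulk, SNAI3-AS1 had 7.36 and 2.39 CPM in DASHed and 0.664 and 1.38 CPM in Untreated libraries, and A1BG-AS1 had 0 and 0 in DASHed and 0.101 and 0 CPM in Untreated libraries. These 5 genes were named for their spread over cells, so the spread is a description.

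CPNE8-AS1, named for a copine that binds phospholipids with calcium, and RARA-AS1, named for a retinoic acid receptor, had no count in any mini-bulk library after rounding. CPNE8-AS1 had 27.3 CPM in DASHed cell 4 and 9.88 CPM in Untreated cell 4, and otherwise only 0.174 CPM in Untreated cell 1. Of 60 pairs in which both genes had the same highest cell number in DASHed and Untreated cells, 23 had the same number for AS gene and partner, a count with no value for other gene pairs beside it. CYP1B1-AS1 and CYP1B1 differed, CYP1B1-AS1 having 27.2, 60.9, 37.0 and 59.3 CPM in DASHed and 37.4, 90.2, 49.2 and 33.3 CPM in Untreated cells. Its partner CYP1B1 had 0, 0, 0 and 27.96 CPM in DASHed and 0.174, 0, 0 and 7.76 CPM in Untreated cells, so nearly all its counts were in cell 4.

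**Figure D5:**
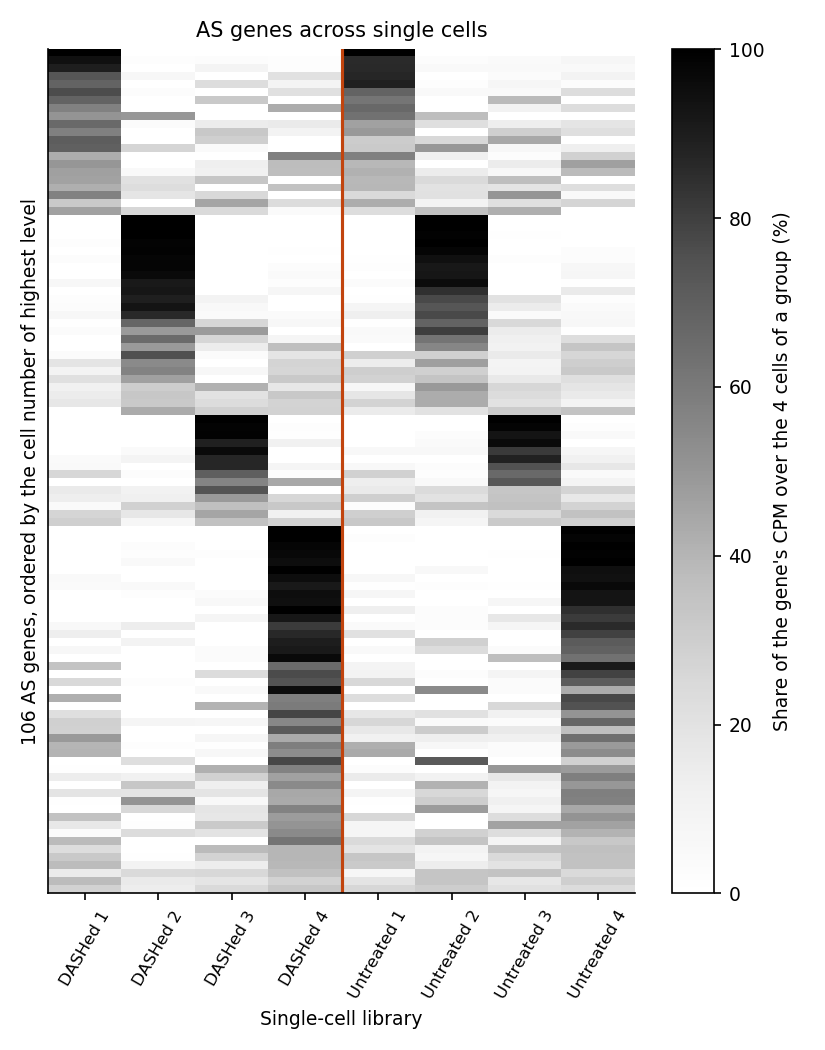
Share of each AS gene's CPM over the 4 cells of a group that lies in each cell (grey scale, %), for DASHed cells 1 to 4 (left of the line) and Untreated cells 1 to 4 (right of it), with the 106 AS genes ordered by the cell number of their highest level. Dark blocks recur at the same number on both sides, as for 84 of 106 genes the highest cell has the same number.

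Fewer AS genes were seen in DASHed than in Untreated libraries at the deposited depth. At least 1 count was seen for 93 and 92 of 106 AS genes in DASHed and for 99 and 99 in Untreated mini-bulk. With all mini-bulk libraries thinned to 837450 counts, it was 88 and 92 in DASHed and 64 and 80 in Untreated mini-bulk. In single cells 67 to 87 were seen in DASHed and 79 to 94 in Untreated cells, and 68 to 79 and 64 to 87 after thinning to 1018815 counts. All 4 DASHed cells held 27 AS genes, all 4 Untreated cells 56, and all 12 libraries 24.

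Other antisense genes gave context for these values. Of the 1109 AS rows under the sum, 37 were tested in mini-bulk. Of these 1 rose and 1 fell (2.70% each), the median log2 fold change being 0.03. Of 4608 genes of the antisense type without an AS symbol, 165 were tested, and 5 rose (3.03%) and 20 fell (12.1%), with a median of 0.25. AS genes that share under 10% of their exonic bases with other genes had 34 tested, of which 1 rose (2.94%) and 11 fell (32.4%). Of all tested genes 9.9% rose and 19.8% fell, and these lists were not tested against them. By position, 2 of the 49 tested AS genes that share exonic positions with their partner rose and 13 fell, and of the 11 that overlap its body without a shared exon 1 rose and 3 fell. That is 4.08% and 26.5% of the first and 9.09% and 27.3% of the second, beside 9.9% and 19.8% of all tested genes, and the classes were not tested against these. Of the 4 tested that point away from it without overlap, 0 rose and 2 fell in the edgeR test.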

How the data were processed

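Per the labels' protocols, single-cell and mini-bulk libraries were made with MATQ-seq. What the authors deposited is a single table of kallisto estimated counts by gene symbol (version 0.46.2, from the submitters' processing notes). kallisto divides reads that fit several transcripts among them, so values of overlapping or near-identical genes depend on each other. Not given in the sources used here are the genome build, the annotation, the strand setting and how transcripts were added up. Coordinates, overlaps, lengths and GC content came from GENCODE 29 by symbol, and start regions from RefSeq (GRCh38.p14).

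Groups follow the labels. Estimated counts were rounded and tested in mini-bulk with edgeR 4.0.16 (R 4.3.3) after its default expression filter. The same test was also run on data simulated from these counts, without the difference in composition between DASHed and Untreated libraries. DESeq2 1.42.0, other scalings and leaving out each replicate were alternatives. Intervals and the floor of 3 counts cover counting error only; the floor is 0.498 to 3.58 CPM per library. rRNA was taken as 547 genes and pseudogenes, of which 87 had counts, and the genes inside 18S.

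The AS genes and all lists were chosen with earlier results of these data known. Genes named are the 10 AS genes of highest sum, up to 10 called each way by fold, the 5 pairs each way with the largest difference in fold change, 5 AS genes by spread over cells, those beside the threshold, the 5 sharing most sequence with the partner, and the partners. DLGAP1-AS1, DLGAP1-AS2, NCBP2-AS2 and RARA-AS1 were named after their values were seen, as was the split of the single-cell comparison by summed counts chosen.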

Additional observations from a re-analysis of the deposited data

Results flagged for a closer look

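Cells whose level stood apart from the other 3 of their group were looked for in the named AS genes, each level being the CPM of the outlying cell. Of 68 groups of 4 cells 22 had such a cell by Dixon's gap measure. Chance alone would flag about 1 in 20 groups of evenly spread values, but 10 of the 22 belong to 5 genes that were named for their spread over cells. The other named AS genes had 12 in 58 groups (20.7%), beside 22.1% of 19689 groups of genes other than AS genes. Over all AS genes, named or not, 84 of 212 groups (39.6%) had such a cell. The sum that selected AS genes and other genes includes these cells, and the difference was not tested. Such cells are common in these libraries. The same cell number stood apart in DASHed and Untreated cells for 9 AS genes. ATP11A-AS1 stood out in cell 2 with 89.3 CPM in DASHed and 20.0 CPM in Untreated cells. ZNF503-AS1 did so with 63.8 CPM in DASHed and 15.7 CPM in Untreated cell 2, A1BG-AS1 with 58.2 and 19.7 CPM, SNAI3-AS1 with 71.6 and 21.6 CPM and ATP2C2-AS1 with 53.0 and 11 CPM. TBC1D22A-AS1 stood out in cell 3 with 117 CPM in DASHed and 25.2 CPM in Untreated cells, and AGAP2-AS1 there with 44.9 and 9.65 CPM. CPNE8-AS1 stood out in cell 4 with 27.3 CPM in DASHed and 9.88 CPM in Untreated cells, and RALY-AS1 in cell 1 with 33.2 and 24.0 CPM.

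A single group held the outlying cell in 4 more genes. DASHed cell 4 had 29.9 CPM of SMARCA5-AS1. Among Untreated cells, PCBP1-AS1 had 27.5 CPM in cell 4, TTN-AS1 5.80 CPM in cell 4 and SEPSECS-AS1 7.47 CPM in cell 1.

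The antisense share of LRRC75A-AS1 in its pair went opposite ways in the 2 kinds of input. The difference of DASHed minus Untreated was −11.6 percentage points in mini-bulk, where the groups did not overlap, and 8.88, 7.93, 11.3 and 10.2 points in cells 1 to 4. The difference between the inputs was not tested.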

How the results depend on the processing

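Of the AS genes, 21 were called in mini-bulk, against 33 under total counts alone, 33 with a replicate block, 5 with a GC offset, 11 with both GC offset and block, and 10 with DESeq2. Those with sums of at least 200 gave 12, and those sharing under 10% of exonic bases 12. Over all genes the calls were 2997, against 6856, 5403, 368, 1558 and 1860 in the same order of settings. Partners gave 23, against 53 under total counts, 43 with the block, 1 with the GC offset and 11 with both. Under total counts, AS rows under the sum gave 27 in place of 2, and other antisense genes 119 in place of 25. Leaving out 1 library gave 6 to 20 AS genes, 10 to 27 partners and 1417 to 3450 genes in all; without Untreated replicate 1 or 2 the AS genes were 9 and 6, with 10 and 9 of the 21 still tested. CYP1B1-AS1, GABPB1-AS1, NUTM2B-AS1, PCBP1-AS1 and UGDH-AS1 were called each time. The labels do not say that same-numbered mini-bulk libraries are paired; their deviations correlated at 0.45 over 10083 genes, and the block kept all 21 calls and added 12, among them TMEM147-AS1 (adjusted p = 0.00459) and GAS6-AS1 (0.000626).

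The ratio of the summed level turned from above 1 to 0.663 in mini-bulk and 0.8291 in single cells when rRNA was left out of the total. The antisense share difference of TPT1-AS1 ranged from −1.44 to 5.75 and that of SMC2-AS1 from −5.40 to 60.9 percentage points with 1 library left out, negative without DASHed replicate 1. The other 8 pairs kept their direction.

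Among the named genes, log2 fold changes turned positive under total counts for GABPB1-AS1 (0.72), LRRC75A-AS1 (1.73), PAX8-AS1 (1.45), PCBP1-AS1 (0.17), RALY-AS1 (0.37), TTN-AS1 (0.026), TPT1-AS1 (0.16), ZNF503-AS1 (1.37), ELF3-AS1 (1.42), PAX8 (1.95), UGDH (1.28), SMARCA5 (1.001), LIMD1 (1.56), SBF2 (0.60) and STARD7 (0.31). SDCBP2-AS1 and THUMPD3-AS1, which fell, were also above 0 there. With the GC offset, without and with the block, they turned positive for GABPB1-AS1 (0.20 and 0.20), LRRC75A-AS1 (0.045 and 0.040), UGDH (0.061 and 0.055) and SMARCA5 (1.01 and 0.97). PAX8 was at 0.089 in DESeq2 and between −0.35 and 0.15 with 1 library left out, LIMD1 between −0.91 and 0.013 and SEPSECS between −0.039 and 0.47. The cause of these turns was not tested. Depth limits the AS genes with few DASHed counts, as the floor of 3 counts is up to 3.58 CPM there.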
